A study of Mus musculus with 12 samples.

Results

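The mitochondrial genome of the mouse is a small circular chromosome that encodes 13 mRNAs, 2 ribosomal RNAs (rRNAs) and 22 transfer RNAs (tRNAs). Every gene whose symbol starts with mt- was taken from the expression table, which gave 27 genes of 17283: all 13 mRNAs, both rRNAs and 12 of the tRNAs. The other 10 tRNAs were not analysed here. On the reference chromosome 12 of the mRNAs, both rRNAs and 7 of the tRNAs lie on the plus strand and are called heavy-strand genes after their template. The light-strand genes are mt-Nd6 and 5 tRNAs, mt-Tn, mt-Tc, mt-Ty, mt-Te and mt-Tp.

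The study measured RNA of the medial prefrontal cortex (mPFC) in C57 mice, labelled wild type, and in BTBR mice, inbred animals studied for their autism-like behaviour. Both strains received intraperitoneal injections for 7 days, either of astragaloside IV (ASIV), a saponin of Astragalus roots, or of the solvent, labelled DMSO and called vehicle here. The 4 groups, C57 vehicle, C57 ASIV, BTBR vehicle and BTBR ASIV, had 3 libraries each, with no allele other than the strain given in the labels and no age, sex or dose. The series title names oxidative phosphorylation, the process that the mitochondrial mRNAs serve. The labels do not say that the 3 libraries of a group came from separate animals, so the p-values measure the spread between these libraries.

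Both strands of the mitochondrial genome are transcribed as long precursors from which the tRNAs are cut, and this frees the mRNAs and rRNAs that lie between them. The mRNAs encode subunits of the respiratory complexes I, III and IV and of the ATP synthase, and the rRNAs and tRNAs serve the ribosome of the organelle that translates them. All other proteins of mitochondria, including the polymerase and the RNA-binding proteins that keep these transcripts stable, come from nuclear genes. In the brain, neurons depend on oxidative phosphorylation for synaptic work. Pieces of the mitochondrial genome have also been copied into nuclear chromosomes, where the annotation lists them as pseudogenes.

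The light-strand tRNAs and the run of heavy-strand tRNAs between mt-Nd4 and mt-Nd5 are shown here because the first had strain differences under vehicle of -4.31 or lower and the second the values nearest to 0 among the tRNAs. They are transcripts of GENCODE M21 on mm10, written as DNA from 5′ to 3′, and capitals mark the anticodon.
mt-Te: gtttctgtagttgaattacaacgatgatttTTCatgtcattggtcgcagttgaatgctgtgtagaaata
mt-Tn: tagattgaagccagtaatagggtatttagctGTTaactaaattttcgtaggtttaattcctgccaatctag
mt-Ty: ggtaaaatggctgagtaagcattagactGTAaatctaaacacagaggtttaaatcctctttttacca
mt-Tc: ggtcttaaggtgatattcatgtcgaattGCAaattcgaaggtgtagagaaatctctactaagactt
mt-Tp: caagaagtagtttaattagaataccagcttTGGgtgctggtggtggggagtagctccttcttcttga
mt-Th: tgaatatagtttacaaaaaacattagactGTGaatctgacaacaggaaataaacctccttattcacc
mt-Ts2: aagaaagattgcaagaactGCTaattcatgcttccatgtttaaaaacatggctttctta
mt-Tl2: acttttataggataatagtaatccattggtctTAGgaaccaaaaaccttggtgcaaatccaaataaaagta
The first 5 are the light-strand tRNAs of glutamate (chrM:14071-14139), asparagine (chrM:5089-5159), tyrosine (chrM:5260-5326), cysteine (chrM:5192-5257) and proline (chrM:15356-15422), all on the minus strand. The last 3 carry histidine (chrM:11546-11612), serine (chrM:11613-11671) and leucine (chrM:11671-11741) and follow each other on the plus strand.

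A second set is shown because 1 base separates a mitochondrial mRNA from its nuclear copy. mt-Nd3 (chrM:9459-9806, plus strand) matched the pseudogene Gm28438 (chr1:24612775-24613119, minus strand) over 345 bases with the substitution T3C, which gives the base of mt-Nd3 first and is counted from 1 at its 5′ end. The first 60 bases of each are given with that base in capitals.
mt-Nd3: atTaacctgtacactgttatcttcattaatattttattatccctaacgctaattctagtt
Gm28438: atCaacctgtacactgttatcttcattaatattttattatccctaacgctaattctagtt

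Values are in FPKM, fragment counts scaled to exon length and to the depth of the library, as deposited. FPKM times exon length came out as whole multiples of a step in each library, which gave a depth of 16166328 to 18660039 fragments. Of all values under 50 fragments, 97.6% to 97.9% were whole within 0.02 of a fragment. Replicate libraries correlated at 0.971 to 0.992 across genes on the log2(FPKM + 1) scale, with the widest spread in BTBR vehicle. Markers of neurons summed to 828.6 to 1317 FPKM over the 12 libraries, those of choroid plexus to 1.05 to 10.6. Groups were compared with limma on log2(FPKM + 1) over 13586 genes with an FPKM of at least 1 in 3 or more libraries, and all 27 mitochondrial genes passed that filter. A gene was called at a Benjamini-Hochberg adjusted p under 0.05 over all genes tested, and differences are given as log2 ± standard error.

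The mRNAs of the mitochondrial genome took 4.56, 4.48 and 4.83% of fragments in the 3 C57 vehicle libraries and 0.640, 0.342 and 0.387% in BTBR vehicle. In BTBR ASIV they took 3.11, 3.03 and 3.23%, and in C57 ASIV 2.96, 4.25 and 4.72%. The BTBR vehicle libraries lay below every other library, and in C57 ASIV replicate 1 lay below its 2 companions. The rRNA share was 0.520, 0.516 and 0.571% in the C57 vehicle libraries, 0.516, 0.271 and 0.441% in BTBR vehicle and 0.611, 0.797 and 0.90% in BTBR ASIV, so that the highest BTBR vehicle library equalled the lowest of C57 vehicle to 3 digits. The tRNA genes held 0.0158 ± 0.00119% of fragments in the C57 vehicle libraries and 0.00203 ± 0.000539% in BTBR vehicle (mean ± SD, n = 3). With 3 libraries against 3 the exact two-sided permutation test cannot go below 0.1, which the mRNA, rRNA and tRNA shares each reached between the strains under vehicle (0.167 after adjustment over 20 tests). In such bulk tissue, fewer cells of a type and less RNA per cell cannot be told apart.

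**Figure D1:**
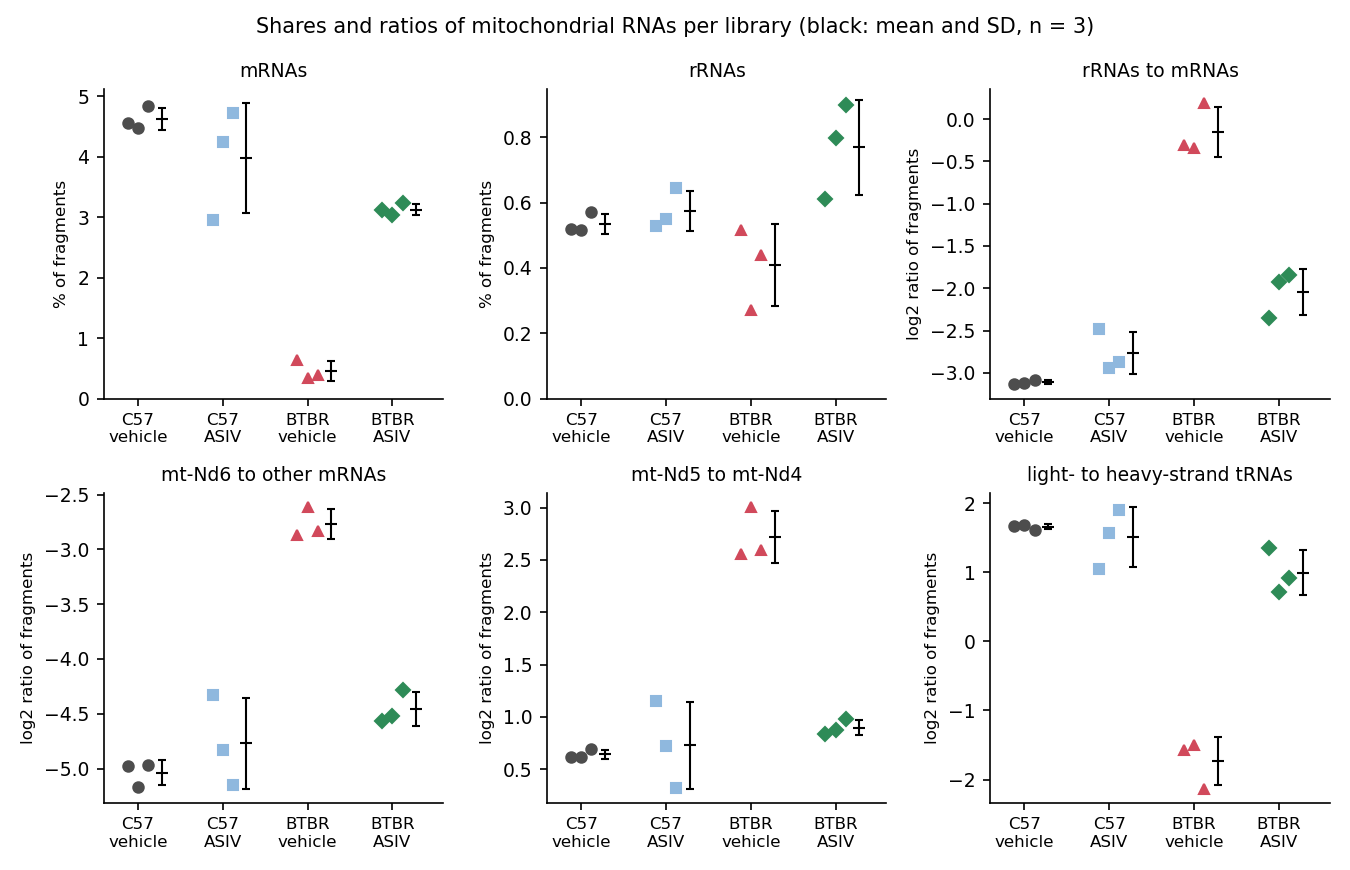
Share of fragments from mitochondrial mRNAs and rRNAs (percent, linear axis from 0) and 4 log2 ratios of fragments within the mitochondrial RNAs, for each of the 12 libraries. Coloured points are libraries, black marks the mean and SD of 3. The mRNA share of BTBR vehicle lies between 0.342% and 0.640%, and in the 4 ratio panels BTBR vehicle does not overlap any other group.

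The comparison of the strains under vehicle asked how the mitochondrial RNAs of BTBR differ from those of C57 without ASIV. Of the 27 genes, 26 were called lower in BTBR, where 20.8% of all genes tested were called lower, and none was called higher, beside 22.3% of all genes. The median log2 difference was -4.06 over the 27 genes and -4.38 over the mRNAs, beside 0.01 over all genes tested. The values ranged from -6.07 for mt-Nd4l to -0.22 for mt-Rnr2, the gene that was not called. In 25 of the 27 genes all BTBR vehicle libraries lay below all C57 vehicle libraries, which was so for 25.9% of all genes tested.

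ASIV against vehicle in BTBR asked whether the same RNAs differ after treatment of that strain. Of the 27 genes, 25 were called higher with ASIV, beside 13.7% of all genes tested, and none was called lower, beside 15.4%. The ASIV libraries all lay above the vehicle libraries in 25 of the 27, which was so for 19% of all genes. The median log2 difference was 3.04 over the 27 genes and 3.72 over the mRNAs, beside -0.01 over all genes tested. The 2 genes not called were mt-Ts2 (0.54 ± 0.21) and mt-Tl2 (0.28 ± 0.29), neighbours in the run before mt-Nd5. Both comparisons use the same 3 BTBR vehicle libraries, so their opposite signs are not independent of each other.

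**Figure D2:**
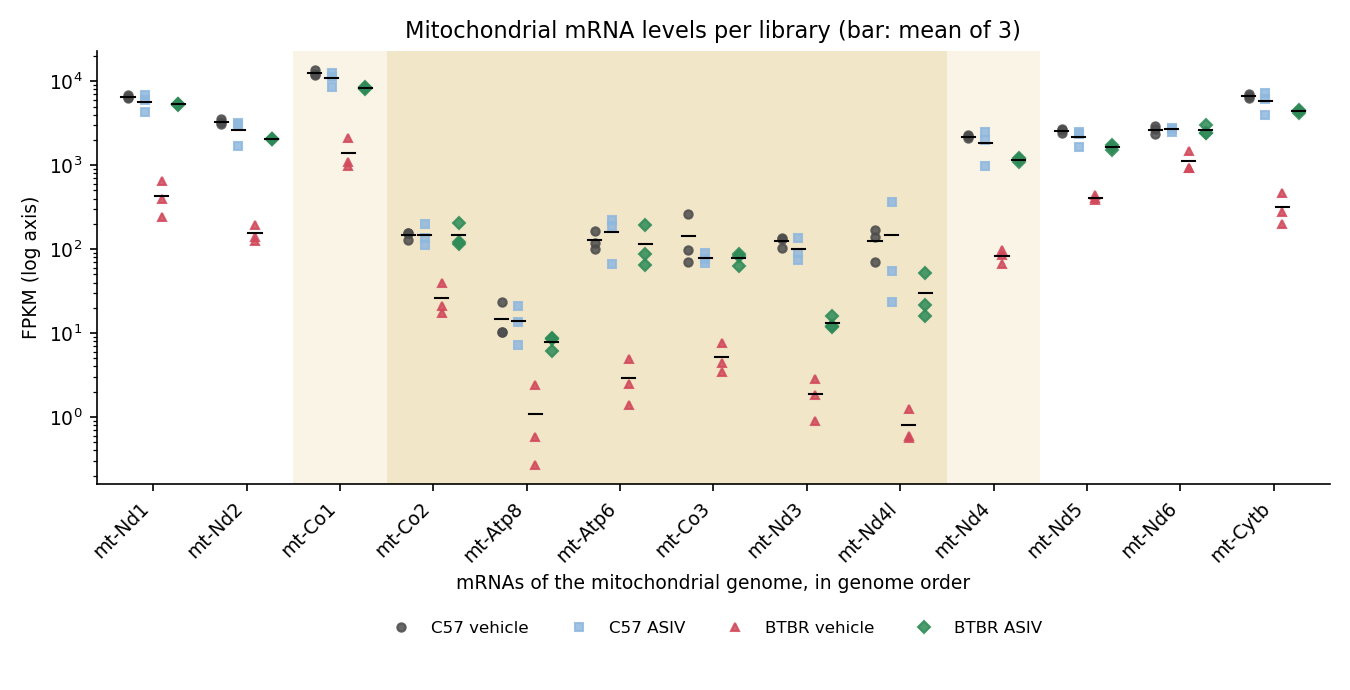
FPKM of the 13 mitochondrial mRNAs in each library on a log axis, in genome order, with points for libraries and a bar for the mean of 3. Dark shading marks the 6 mRNAs that lie wholly in the stretch copied to chromosome 1 and light shading the 2 that lie partly in it. BTBR vehicle is the lowest group for all 13 mRNAs, and the shaded 6 stand at 14.7 to 146 FPKM in C57 vehicle while the unshaded 5 stand at 2587 to 6660.

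Complex I, which takes electrons from NADH, has 7 subunits encoded in this genome. mt-Nd1 had 6534, 6339 and 6773 FPKM in vehicle-treated C57, 649.6, 244 and 393 in BTBR vehicle and 5373, 5206 and 5284 in BTBR ASIV. BTBR vehicle lay far below both other groups, at -4.04 ± 0.28 against C57 vehicle (limma, adjusted p = 2.03e-06), and it was higher with ASIV in BTBR by 3.73 ± 0.28 (adjusted p = 1.83e-05). mt-Nd2 had 3527, 3267 and 3116 FPKM in the C57 vehicle libraries, 196, 126 and 140.2 in BTBR vehicle and 2069, 2049.6 and 2031 in BTBR ASIV. Its treated BTBR libraries were close to each other and also below all C57 vehicle libraries, with differences of -4.44 ± 0.22 between the strains and 3.75 ± 0.22 with ASIV. mt-Nd4 had 2281, 2106 and 2199 FPKM in vehicle-treated C57, 98.8, 66.7 and 85.1 in BTBR vehicle and 1222, 1080.1 and 1186 in BTBR ASIV. Here too the 3 groups did not overlap, with BTBR ASIV between the others (-4.72 ± 0.27 and 3.80 ± 0.27).

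mt-Nd5 and mt-Nd6, 2 further complex I subunits whose genes overlap by 14 bases on opposite strands, had values nearer to 0 than the other complex I mRNAs in both comparisons. mt-Nd5 had 2635, 2442 and 2684 FPKM in the C57 vehicle libraries, 439, 404 and 389 in BTBR vehicle and 1644, 1501 and 1761 in BTBR ASIV. The 3 groups did not overlap, with a strain difference under vehicle of -2.65 ± 0.15 (limma, adjusted p = 3.27e-07) and an ASIV difference of 1.99 ± 0.15. mt-Nd6, the mRNA of the light strand, had 2705, 2335 and 2889.6 FPKM in vehicle-treated C57, 1482, 924 and 917 in BTBR vehicle and 2427, 2438 and 3038 in BTBR ASIV. It was lower in BTBR vehicle, at -1.29 ± 0.18 (limma, adjusted p = 0.000144), and its treated BTBR libraries overlapped those of C57 vehicle. By FPKM, which is per length, mt-Nd6 was the fifth of the 13 mRNAs in C57 vehicle and the second in BTBR vehicle, where its lowest library (917) exceeded the highest of mt-Nd1 (649.6). Whether the counting used strand is not given in the sources used here, so fragments of the overlap and of antisense RNA cannot be told apart.

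The remaining complex I subunits, mt-Nd3 and mt-Nd4l, lie in the stretch that was copied to chromosome 1. mt-Nd3 had 132, 135 and 103 FPKM in the C57 vehicle libraries, 2.86, 1.85 and 0.889 in BTBR vehicle and 12, 11.7 and 16.0 in BTBR ASIV. Its treated BTBR libraries stayed far below both C57 groups, and it is described with its copy after the other members. mt-Nd4l had 140.2, 167 and 70.6 FPKM in vehicle-treated C57, 0.558, 0.591 and 1.25 in BTBR vehicle and 52.4, 15.8 and 21.7 in BTBR ASIV. The BTBR vehicle values of mt-Nd4l rest on 3, 3 and 6 fragments, so its difference of -6.07 ± 0.85 is loosely determined (95% confidence interval -7.98 to -4.16). A fit of voom to the recovered fragments gave -7.14 and did not call it (adjusted p = 0.098); for ASIV in BTBR the same fit gave 4.97 (adjusted p = 0.279).

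Complex III has 1 subunit from this genome, the cytochrome b of mt-Cytb. It had 6604, 6317 and 7058 FPKM in the C57 vehicle libraries, 465, 197 and 278 in BTBR vehicle and 4408, 4173 and 4582 in BTBR ASIV. The 3 groups did not overlap, with a strain difference of -4.49 ± 0.27 (limma, adjusted p = 8.45e-07) and an ASIV difference of 3.89 ± 0.27 (adjusted p = 1.4e-05). Complex IV, the cytochrome c oxidase, takes its 3 catalytic core subunits from mt-Co1, mt-Co2 and mt-Co3. mt-Co1, the most abundant mRNA by FPKM in all 4 groups, had 11892, 12353 and 13439 in the C57 vehicle libraries, 2133, 975.1 and 1104 in BTBR vehicle and 8136, 8252 and 8524 in BTBR ASIV. Its 3 groups did not overlap (-3.25 ± 0.24 between the strains and 2.65 ± 0.24 with ASIV, both called). mt-Co2 had 154, 128 and 156 FPKM in vehicle-treated C57, 39.3, 17.4 and 21.0 in BTBR vehicle and 116, 121 and 206 in BTBR ASIV, so that treated BTBR and C57 vehicle overlapped (-2.53 ± 0.31 and 2.50 ± 0.31, both called). mt-Co3 had 71.1, 262 and 98.2 FPKM in the C57 vehicle libraries, 7.61, 3.43 and 4.42 in BTBR vehicle and 63.4, 82.1 and 87.5 in BTBR ASIV, with C57 vehicle replicate 2 above its companions (-4.38 ± 0.41 and 3.72 ± 0.41, both called).

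The membrane part of the ATP synthase takes subunits from mt-Atp6 and mt-Atp8, whose coding sequences overlap by 43 bases. mt-Atp6 had 164, 117 and 100.2 FPKM in vehicle-treated C57, 4.95, 1.38 and 2.45 in BTBR vehicle and 193, 64.6 and 88.4 in BTBR ASIV. Both differences of mt-Atp6 were called, at -5.10 ± 0.54 (limma, adjusted p = 7.32e-05) and 4.84 ± 0.54 (adjusted p = 0.000291). mt-Atp8, the shortest mRNA at 204 bases, had 23.4, 10.4 and 10.3 FPKM in the C57 vehicle libraries, 0.271, 0.574 and 2.43 in BTBR vehicle and 6.12, 8.39 and 8.75 in BTBR ASIV. It rests on 1, 2 and 8 fragments in BTBR vehicle, and its strain difference of -2.95 became -4.00 with a pseudocount of 0.1.

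The rRNAs of the mitochondrial ribosome had strain differences under vehicle nearer to 0 than any of the mRNAs. mt-Rnr1, the small-subunit 12S rRNA, had 2346, 2343 and 2580.2 FPKM in vehicle-treated C57, 1965, 944 and 1486 in BTBR vehicle and 2638, 3470.2 and 3943 in BTBR ASIV. It was lower in BTBR vehicle, at -0.79 ± 0.23 (limma, adjusted p = 0.0152) and higher with ASIV in BTBR by 1.24 ± 0.23 (adjusted p = 0.00201), and neither was called after quantile normalization (-0.33 and 0.72). mt-Rnr2, the large-subunit 16S rRNA, had 1870.1, 1848 and 2053 FPKM in the C57 vehicle libraries, 2076, 1141 and 1890.2 in BTBR vehicle and 2267, 2943 and 3312 in BTBR ASIV. Its strain difference of -0.22 ± 0.20 was not called (95% confidence interval -0.66 to 0.22, limma, adjusted p = 0.402) and turned to 0.68 after quantile normalization and to 0.044 without BTBR vehicle replicate 2. With ASIV in BTBR mt-Rnr2 was higher by 0.77 ± 0.20 (limma, adjusted p = 0.0135), a value that was not called in a fit on those groups alone or without BTBR ASIV replicate 3 and turned to -0.12 after quantile normalization.

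All 12 tRNA genes were called lower in BTBR under vehicle, beside 20.8% of all genes tested. The 5 light-strand tRNAs differed by -5.78 to -4.31, with a median of -4.94, and the 7 heavy-strand tRNAs by -4.35 to -0.80, with a median of -1.42. These ranges overlapped, with mt-Tw of the heavy strand (-4.35 ± 0.32) below mt-Tp of the light strand (-4.31 ± 0.27) and mt-Tl1 of the heavy strand at -4.06 ± 0.39, and the difference between the strands was not tested. mt-Te had 213, 182 and 175 FPKM in vehicle-treated C57, 2.40, 3.39 and 1.79 in BTBR vehicle and 140.0, 75.3 and 129 in BTBR ASIV, which made it the tRNA with the lowest value (-5.78 ± 0.29, limma, adjusted p = 4.43e-07). mt-Tp, the tRNA gene with the highest mean FPKM in every group but BTBR vehicle, had 969, 802 and 799 FPKM in the C57 vehicle libraries, 48.7, 38.4 and 39.7 in BTBR vehicle and 372, 318 and 372 in BTBR ASIV. For both genes the 3 groups did not overlap, with BTBR ASIV between the others.

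Among the cluster of light-strand tRNAs before mt-Co1, mt-Tn had 218, 203 and 194 FPKM in vehicle-treated C57, 11.7, 4.95 and 2.61 in BTBR vehicle and 116, 99.6 and 140.1 in BTBR ASIV. mt-Tc had 434, 398 and 425 FPKM in the C57 vehicle libraries, 26.0, 7.10 and 11.2 in BTBR vehicle and 266, 271 and 408 in BTBR ASIV. mt-Ty had 102, 112 and 104 FPKM in vehicle-treated C57, 1.65, 0.874 and 7.39 in BTBR vehicle and 85, 54.4 and 92.8 in BTBR ASIV. The BTBR vehicle libraries were the lowest for each, and for mt-Ty they hold 2, 1 and 8 fragments, and its strain difference went from -4.94 to -5.58 without BTBR vehicle replicate 3.

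The run from mt-Th to mt-Tl2 had the values nearest to 0 among the tRNAs. mt-Th had 88.8, 104 and 88.1 FPKM in the C57 vehicle libraries, 57.7, 35.8 and 53.5 in BTBR vehicle and 62.4, 107 and 99.3 in BTBR ASIV, a strain difference of -0.95 ± 0.21 (limma, adjusted p = 0.00309). mt-Ts2 had 155, 114 and 142 FPKM in vehicle-treated C57, 92.7, 59.5 and 78.6 in BTBR vehicle and 89.2, 98.3 and 153 in BTBR ASIV. mt-Tl2 had 131, 145 and 179 FPKM in the C57 vehicle libraries, 111, 53.6 and 108 in BTBR vehicle and 73.4, 113 and 139 in BTBR ASIV. In each of the 3 the BTBR vehicle libraries lay below C57 vehicle, and the call of mt-Tl2 (-0.80 ± 0.29, adjusted p = 0.0457) was lost after rescaling to TPM and when any 1 of 7 libraries was left out. The run lies between mt-Nd4, at -4.72 ± 0.27, and mt-Nd5, at -2.65 ± 0.15, with at most 1 base between neighbours, and mt-Te lies 5 bases from mt-Cytb. A fragment of such a short gene can reach into its neighbours, and which tRNA fragments came from longer RNAs was not tested.

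**Figure D3:**
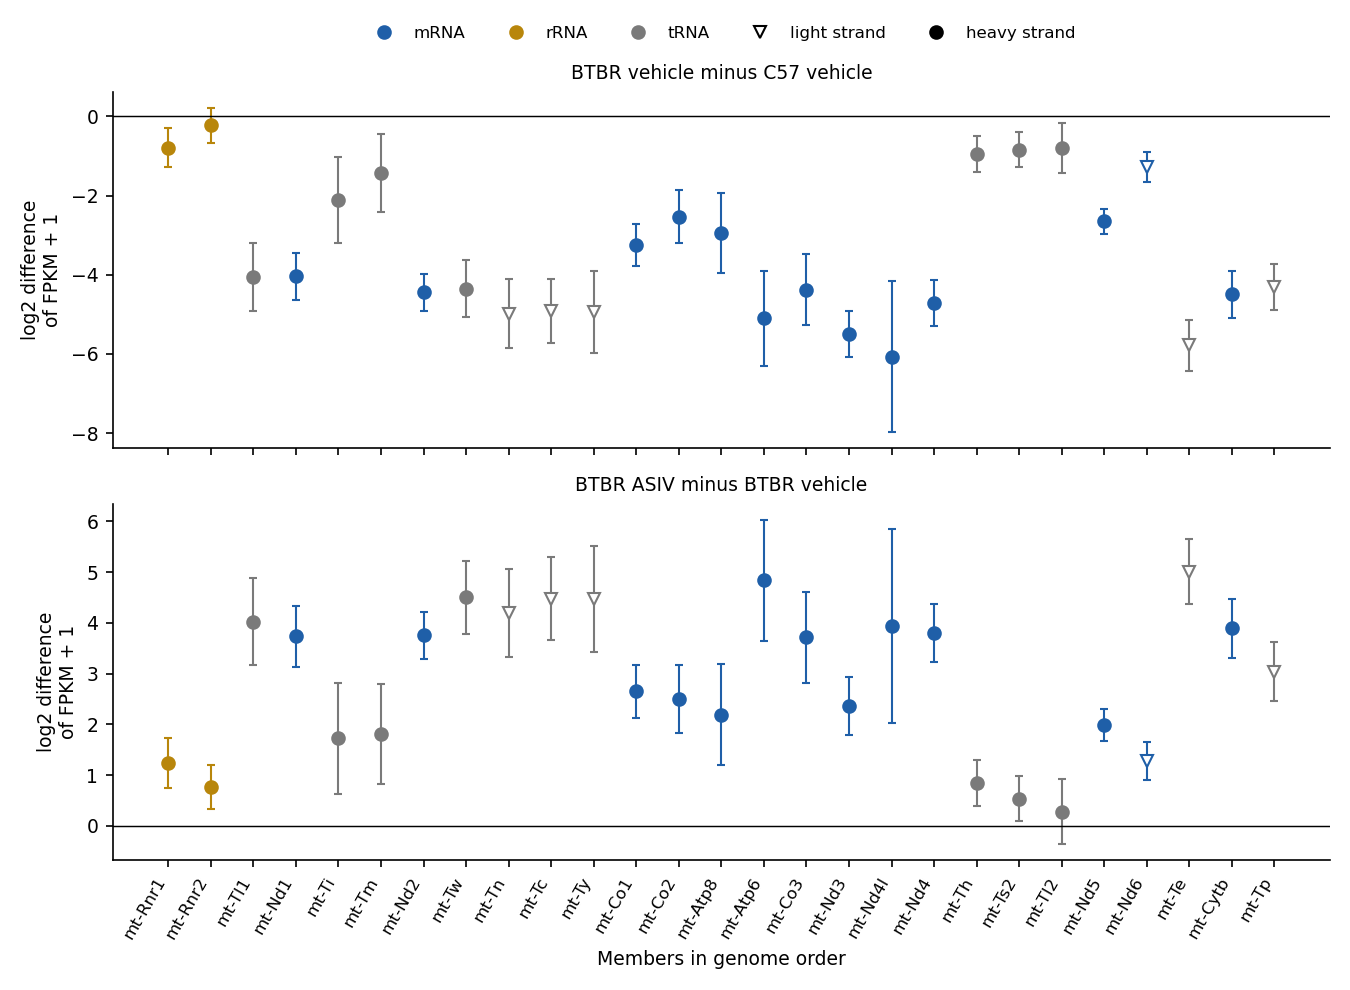
Log2 difference of FPKM + 1 for the 27 mitochondrial genes in genome order, BTBR vehicle minus C57 vehicle above and BTBR ASIV minus BTBR vehicle below, with bars for 95% confidence intervals. Colour gives the class, and open triangles mark light-strand genes. mt-Rnr1, mt-Rnr2, the run from mt-Th to mt-Tl2 and mt-Nd6 lie nearest to 0 in both panels, and the 5 light-strand tRNAs lie at -4.31 or lower above and at 3.04 or higher below.

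Ratios within the mitochondrial RNAs do not depend on the scaling of a library. The log2 ratio of rRNA to mRNA fragments was -3.13, -3.12 and -3.08 in the C57 vehicle libraries, -0.31, -0.34 and 0.19 in BTBR vehicle and -2.35, -1.93 and -1.84 in BTBR ASIV. So rRNA and mRNA fragments were near parity in BTBR vehicle and the mRNAs exceeded the rRNAs in every other library. The log2 ratio of mt-Nd6 to the other mRNAs was -4.98, -5.17 and -4.96 in the C57 vehicle libraries, -2.87, -2.62 and -2.83 in BTBR vehicle and -4.57, -4.52 and -4.28 in BTBR ASIV. For mt-Nd5 against mt-Nd4 it was 0.61, 0.62 and 0.69, 2.56, 3.00 and 2.60 and 0.83, 0.88 and 0.98 in the same order of groups. Both ratios were highest in the 3 BTBR vehicle libraries.

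Summed over the 12 tRNAs measured, fragments on light-strand genes exceeded those on heavy-strand genes in C57 and in treated BTBR libraries. In BTBR vehicle the order was the opposite. Since the use of strand in counting is not given, fragments are assigned here by gene, and the strand of their RNA is not known. The log2 ratio of light-strand to heavy-strand tRNA genes was 1.67, 1.68 and 1.61 in the C57 vehicle libraries, -1.57, -1.5 and -2.13 in BTBR vehicle and 1.35, 0.71 and 0.92 in BTBR ASIV. In BTBR vehicle the fragments on heavy-strand tRNA genes lay mainly on the run from mt-Th to mt-Tl2, at 41 to 142 per gene and library. There mt-Tl1, mt-Ti, mt-Tm and mt-Tw held 1 to 17 fragments and the light-strand tRNAs 1 to 59. A ratio without that run was not taken, so the opposite order is not shown for the heavy-strand tRNAs outside it. The log2 ratio of mt-Rnr1 to mt-Rnr2 was -0.40, -0.39 and -0.40 in the C57 vehicle libraries, -0.81, -1.0 and -1.08 in BTBR vehicle and -0.51, -0.49 and -0.48 in BTBR ASIV. BTBR vehicle did not overlap C57 vehicle or BTBR ASIV in any of these 5 ratios, and each of those exact two-sided permutation tests gave the smallest p of this design, 0.1 (0.158 after adjustment over 30 tests). BTBR ASIV did not overlap C57 vehicle in these 5 ratios either, with mean differences from -0.66 for light-strand to heavy-strand tRNAs to 1.07 for rRNAs to mRNAs. The ratio of rRNAs to mRNAs also did not overlap between the strains under ASIV (0.73) or for ASIV in C57 (0.34). The ratio of tRNAs to mRNAs had mean differences of 0.40 between the strains under vehicle and -0.51 for ASIV in BTBR, without overlap in either. The exact test gave 0.1 for each of these too. For tRNAs to mRNAs under vehicle, the lowest BTBR library (-8.0522) nearly equalled the highest C57 library (-8.0535).

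Of the genes in the table, 9 pseudogenes matched mitochondrial mRNAs over at least 200 bases at 90% identity or more. The 7 on chromosome 1 (chr1:24611535-24616197, minus strand) correspond to positions 6390 to 11042 of the mitochondrial genome, and the 2 on chromosome 2 match mt-Nd2 (Gm13339, 96.7% identity) and mt-Co1 (Gm13340, 97.6%). On chromosome 1 the copies of mt-Co2 (Gm28661), mt-Atp6 (Gm10925), mt-Co3 (Gm28437), mt-Nd4l (Gm10222) and the first 876 bases of mt-Nd4 (Gm28439) are identical over the aligned bases, while Gm28438 and the copy of part of mt-Co1 (Gm29216, 483 bases, A1066T from the 5′ end of mt-Co1) each have 1 mismatch. mt-Atp8 lies in the stretch too and had no copy of at least 200 bases in the table, but Gm10925 spans the 43 bases that it shares with mt-Atp6. The 6 mRNAs wholly within that stretch had 14.7 to 146 FPKM on average in C57 vehicle, against 2587 to 6660 for the 5 mRNAs outside it. Their strain differences under vehicle had a median of -4.74 inside and -4.04 outside. How fragments that match both places were counted is not given in the sources used here.

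Of the 9 copies 7 were called lower in BTBR vehicle than in C57 vehicle, beside 20.8% of all genes, with values from -4.96 for Gm10925 to -0.99 for Gm13339, whose call was lost without any 1 of 6 libraries. Gm10222 stood at -0.85 ± 0.40 (limma, adjusted p = 0.109), and Gm28438 alone of the 9 was called higher, beside 22.3% of all genes, by 1.80 ± 0.35 (adjusted p = 0.00222). With ASIV in BTBR 6 copies were called higher, beside 13.7% of all genes, and the other 3 stood at 0.68 to 0.96.

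Which of mt-Nd3 and Gm28438 held more fragments depended on the strain. mt-Nd3 held 856, 775 and 583 fragments in C57 vehicle, 478, 564 and 803 in C57 ASIV, 18, 11 and 5 in BTBR vehicle and 77, 74 and 103 in BTBR ASIV. Gm28438 held 121, 120 and 100 fragments in C57 vehicle, 56, 189 and 71 in C57 ASIV, 550, 337 and 369 in BTBR vehicle and 553, 749 and 845 in BTBR ASIV. Of the fragments on either gene, 74.9% to 91.9% lay on mt-Nd3 in the 6 C57 libraries, 1.34% to 3.17% in BTBR vehicle and 8.99% to 12.2% in BTBR ASIV. Low shares in BTBR vehicle were also seen in pairs with no mismatch. In the same order of groups, mt-Nd4l held 66.7% to 90.2%, 3.06% to 5.88% and 34.4% to 66.3%. mt-Co3 held 52.1% to 80.4%, 17.9% to 24.6% and 41.6% to 54.3%. For mt-Co2 (50.6% to 58.3% in BTBR vehicle) and mt-Atp6 (39.0% to 53.0%) the shares overlapped those of C57 vehicle. mt-Nd3 was lower in BTBR than in C57 under ASIV, at -2.80 ± 0.26 (limma, adjusted p = 0.000121), and Gm28438 was higher by 2.81 ± 0.35 (adjusted p = 0.00201).

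Summing each member with its copies, an alternative chosen after seeing the data, left 568, 348 and 374 fragments for mt-Nd3 in BTBR vehicle and 630, 823 and 948 in BTBR ASIV, beside 977, 895 and 683 in C57 vehicle. Summed, mt-Nd3 differed by -1.0 ± 0.22 between the strains under vehicle (limma, adjusted p = 0.00375), by 0.80 ± 0.22 with ASIV in BTBR (adjusted p = 0.0184) and by 0.11 ± 0.22 between the strains under ASIV (adjusted p = 0.82). For mt-Nd4l the sum stood at -3.05 ± 0.75 under vehicle and 1.69 ± 0.75 with ASIV in BTBR, where it was no longer called (adjusted p = 0.118). For mt-Co3 the sum gave -3.06 ± 0.34 and 2.76 ± 0.34. The median of the mRNAs under vehicle was then -3.06 in place of -4.38, and 26 members were called lower. The mRNAs with no copy in the stretch, such as mt-Nd1, mt-Nd5, mt-Nd6 and mt-Cytb, are not touched by this sum. In C57 vehicle the sums for mt-Co3 came to 1944, 4199 and 2238 fragments, beside 116689, 99744 and 105378 for mt-Nd1. Whether the sums hold all fragments of the copied genes was not tested. The sequence of the BTBR mitochondrial genome was not used here, and the part of the T3C difference in the fragment counts was not tested.

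**Figure D4:**
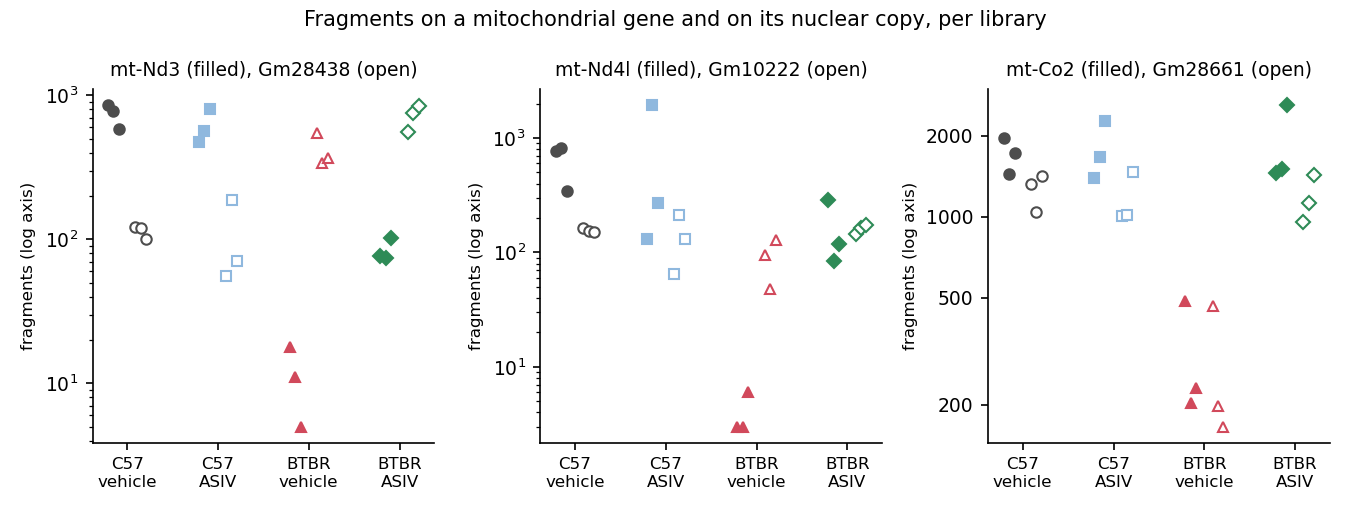
Fragments per library (log axis) on mt-Nd3, mt-Nd4l and mt-Co2 (filled) and on their chromosome 1 copies (open), by group. mt-Nd3 exceeds Gm28438 in all 6 C57 libraries and lies below it in all 6 BTBR libraries, while mt-Co2 exceeds Gm28661 in all 12 libraries. mt-Nd4l exceeds Gm10222 in all 6 C57 libraries, lies below it in every BTBR vehicle library and lies on both sides of it in BTBR ASIV.

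Between the treated strains, 1 of the 27 genes was called lower in BTBR ASIV than in C57 ASIV, mt-Nd3, beside 1.22% of all genes tested. None was called higher, where 1.31% of all genes were. In mt-Co1 and mt-Nd3 the groups did not overlap, with BTBR lower in both, beside 12.7% of all genes. The 13 mRNAs had a median log2 difference of -0.37 and values from -2.80 to -0.02, all below 0, and the rRNAs stood at 0.36 ± 0.23 for mt-Rnr1 and 0.44 ± 0.20 for mt-Rnr2. For mt-Nd4, among those not called, the 95% confidence interval was -1.12 to 0.04. In C57 ASIV, mt-Nd4 had 977, 2012 and 2465 FPKM, and its replicate 1 lay below the 3 BTBR ASIV libraries. Without C57 ASIV replicate 1, 4 of the 27 genes were called. Over all genes tested the main fit called 344, and leaving out any 1 library gave 99 to 643.

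Against vehicle-treated C57, ASIV-treated BTBR libraries were called lower for 3 genes, beside 1.24% of all genes tested: mt-Nd3 (-3.13 ± 0.26, adjusted p = 4.41e-05), mt-Nd5 (-0.66 ± 0.15, adjusted p = 0.0358) and mt-Tp (-1.27 ± 0.27, adjusted p = 0.0329). In 9 of the 13 mRNAs the BTBR ASIV libraries all lay below C57 vehicle, and over the 27 genes this was so for 13, beside 15.2% of all genes tested. Both rRNAs, and no other member, lay above C57 vehicle in every treated BTBR library, beside 14.4% of all genes, at 0.45 ± 0.23 for mt-Rnr1 and 0.55 ± 0.20 for mt-Rnr2, and neither was called, beside 0.942% of all genes called higher. The mRNA median was -0.66. Summed with its copy, mt-Nd3 stood at -0.19 ± 0.22 and was not called (limma, adjusted p = 0.693). The calls of mt-Nd5 and mt-Tp were lost without any 1 of the 6 libraries compared. A fit on those 6 libraries alone called 9 members, beside 560 of all 13586 genes tested, where the main fit called 296. In the main fit the split of all called genes was 128 higher and 168 lower, and it was 169 higher and 104 lower after rescaling to TPM.

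ASIV in C57 asked what the compound does in the reference strain. None of the 27 genes was called, and limma called 0 of 13586 genes, with 417 at an unadjusted p under 0.05 (374 with voom on recovered fragments, which also called 0). Of the 27 genes 21 stood below 0, and the mRNA median was -0.24. mt-Th, with 63.1, 60.1 and 52.5 FPKM in C57 ASIV, was the member with an unadjusted limma p under 0.05 (-0.67 ± 0.21). Its groups did not overlap, nor did those of mt-Ts2, mt-Te and mt-Ty, all lower with ASIV, beside 6.98% of all genes. For mt-Nd1 the 95% confidence interval of the difference was -0.82 to 0.38, and for mt-Cytb -0.83 to 0.35. Without C57 ASIV replicate 1 the mRNA median was 0.00057.

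The interaction of strain and ASIV asked whether the response to the compound differs between the strains. It was called for 23 of the 27 genes, each with a larger difference in BTBR, beside 6.91% of all genes tested, and none was called lower, beside 7.36%. The mRNA median was 3.96, with mt-Nd4 at 4.17 ± 0.38 (limma, adjusted p = 0.000299), mt-Cytb at 4.13 ± 0.38 and mt-Nd6 at 1.26 ± 0.25. After quantile normalization mt-Co1 was not called in the interaction (2.10 in place of 2.88). The 4 genes not called were mt-Rnr2 (0.66 ± 0.29), mt-Tl2 (0.42 ± 0.41), mt-Tm (1.75 ± 0.63) and mt-Ti (1.84 ± 0.69). Of all genes called, 939 were higher and 1000 lower, and after rescaling without the mitochondrial genes 1086 were higher and 763 lower.

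Nuclear genes for the synthesis, processing and stability of mitochondrial RNA were called in both directions, as genes were in general. Of 46 listed factors, 40 were tested, and under vehicle 12 were called higher and 5 lower in BTBR, with a median of 0.08, beside 22.3% of all genes called higher and 20.8% called lower. Neither count is read as particular to these factors. Ptcd2, a pentatricopeptide repeat protein known in mice for the processing of the cytochrome b mRNA, had 15.2, 14.0 and 15.5 FPKM in vehicle-treated C57, 7.91, 4.95 and 6.03 in BTBR vehicle and 12.7, 12.9 and 11.8 in BTBR ASIV. Its groups did not overlap between BTBR vehicle and either of the others (-1.14 ± 0.13 and 0.90 ± 0.13). Lrpprc, which binds and stabilises mitochondrial mRNAs, had 7.42, 6.51 and 6.66 FPKM in the C57 vehicle libraries, 10.9, 15.0 and 12.8 in BTBR vehicle and 7.75, 7.77 and 8.23 in BTBR ASIV, and was higher in BTBR vehicle (0.82 ± 0.11, limma, adjusted p = 9.87e-05).

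Twnk, the helicase of mitochondrial DNA replication, was also higher in BTBR vehicle (0.64 ± 0.09), and Mtpap, the mitochondrial poly(A) polymerase, was lower (-0.61 ± 0.11). With ASIV in BTBR 4 factors were called higher and 6 lower, with a median of -0.09, beside 13.7% and 15.4% of all genes. Lrpprc fell by 0.63, Tfam, which packs mitochondrial DNA and starts its transcription, fell by 0.58, and Trub2, a pseudouridine synthase, fell by 0.44 on the log2 scale. Between the treated strains Mgme1, an exonuclease of mitochondrial DNA, was lower (-0.52 ± 0.11, limma, adjusted p = 0.0339), beside 1.22% of all genes called lower. Its levels were near the filter of 1 FPKM, at 0.859, 1.06 and 1.07 in BTBR ASIV and 1.86, 1.84 and 1.85 in C57 ASIV. Tefm, the elongation factor of mitochondrial transcription, was higher (0.43 ± 0.10, limma, adjusted p = 0.0466), beside 1.31% of all genes called higher. No factor was called between treated BTBR and C57 vehicle, beside 0.942% of all genes called higher and 1.24% lower, or for ASIV in C57, where no gene was called. In the interaction 1 was called higher, Ptcd2 (0.97 ± 0.18), beside 6.91% of all genes. The 2 called lower, beside 7.36% of all genes, were Lrpprc (-0.74 ± 0.15) and Tfam (-0.58 ± 0.17). These counts are not read as particular to the factors.

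Other RNAs and cell type markers moved beside these results, and their part in them was not tested. Whether the libraries were made from polyadenylated or rRNA-depleted RNA is not given in the sources used here. Of 11 listed RNAs in the table that depend on the type of library, 9 were tested, and under vehicle 3 were called higher in BTBR and 1 lower. Of all genes, as the background for these RNAs and for the markers, 22.3% were called higher and 20.8% lower under vehicle, and 13.7% higher and 15.4% lower with ASIV in BTBR. Hist1h1c, a linker histone mRNA, stood at 1.52 ± 0.21 under vehicle and -0.95 ± 0.21 with ASIV in BTBR, and Hist1h2bc, a core histone mRNA, at -1.93 ± 0.21 and 1.30 ± 0.21. Neat1, a nuclear RNA, was higher under vehicle (0.95 ± 0.27, limma, adjusted p = 0.0148) and stood at -0.71 ± 0.27 with ASIV in BTBR, where it was not called. Malat1, another nuclear RNA, was at 0.56 ± 0.34 under vehicle and was not called (limma, adjusted p = 0.202). The 7 neuron markers summed to 1102 to 1220 FPKM in C57 vehicle, 855.2 to 1065 in BTBR vehicle and 828.6 to 996.5 in BTBR ASIV, and 1 was called lower under vehicle and none with ASIV in BTBR. Of 6 astrocyte markers 1 was called higher and 2 lower under vehicle, with sums of 430.9 to 502.2 FPKM in C57 vehicle and 296.6 to 411.1 in BTBR vehicle, and with ASIV in BTBR (445.6 to 483.6) 1 was called in each direction. The sums for oligodendrocyte markers ran from 492 to 1168 FPKM in BTBR vehicle and 628.1 to 732.4 in C57 vehicle, and 1 of 6 was called higher under vehicle and 1 lower with ASIV in BTBR. Of 6 microglia markers 1 was higher and 2 lower under vehicle, and 2 were higher and 1 lower with ASIV in BTBR. Of 5 endothelial markers 1 was called in each direction in both comparisons, and of 4 tested red blood cell markers 1 was lower under vehicle and none was called with ASIV in BTBR.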

How the data were processed

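The authors deposited 1 table of FPKM values per gene for 12 libraries of mouse mPFC, and each column matched 1 sample title. Reads were aligned with HISAT2 2.0.5 to mm10, per the submitters' processing notes; the counter, its annotation, its use of strand and its treatment of fragments with several matches were not given in the sources used here. All values were above 0. Ensembl identifiers were matched to GENCODE M21, and 17265 of 17283 matched. Fragments were recovered as FPKM times exon length and depth: of the 324 values of mitochondrial genes 320 were whole within 0.02, and so were all 190 under 1000 fragments.

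The fit was limma 3.58.1 in R 4.3.3 on log2(FPKM + 1), with 4 group means over all 12 libraries, 8 residual degrees of freedom, the trend and robust options and Benjamini-Hochberg adjustment over 13586 genes; fold changes on this scale understate changes of low genes. It was tested on simulated data. Shares and ratios were compared with exact two-sided permutation tests (scipy 1.17.1). Nuclear copies were sought with blastn 2.17.0 against GENCODE M21 transcripts, because no genome was used; copies outside annotated transcripts are not covered. A check of the replicate numbers of the labels is given with the alternatives. The alternatives were a pseudocount of 0.1, no filter, a filter of 5 FPKM, 4 other scalings, another variance model, a fit on the compared groups alone, voom on recovered fragments, a replicate block, leaving out each library, and sums with nuclear copies.

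Members and lists were chosen with earlier results of these data known. Per-library values were given for the mRNAs, the rRNAs and tRNAs chosen by rule: the 3 highest by mean FPKM, the 3 most negative and the 3 least negative between the strains under vehicle. Of the nuclear factors up to 4 with the smallest p per comparison were named.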

Additional observations from a re-analysis of the deposited data

Results flagged for a closer look

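The response to ASIV differed between BTBR and C57 in a test of that difference (the limma interaction, adjusted p under 0.05) for 23 of 27 mitochondrial genes and 6 of 9 nuclear copies. All were called higher, beside 6.91% of all genes tested. The values are log2 differences of ASIV against vehicle in BTBR minus the same in C57. Among complex I mRNAs the interaction was 3.96 for mt-Nd1, 4.14 for mt-Nd2, 2.69 for mt-Nd3, 4.17 for mt-Nd4, 4.53 for mt-Nd4l, 2.28 for mt-Nd5 and 1.26 for mt-Nd6. It was 4.13 for mt-Cytb of complex III, and 2.88 for mt-Co1, 2.51 for mt-Co2 and 4.37 for mt-Co3 of complex IV. The ATP synthase mRNAs stood at 4.65 for mt-Atp6 and 2.28 for mt-Atp8, and the rRNA mt-Rnr1 at 1.15. Of the light-strand tRNAs, mt-Te stood at 5.59, mt-Ty at 4.95, mt-Tc at 4.81, mt-Tn at 4.32 and mt-Tp at 3.49. Of the heavy-strand tRNAs, mt-Tw stood at 4.73, mt-Tl1 at 3.95, mt-Th at 1.52 and mt-Ts2 at 0.95. The copies stood at 4.40 for Gm10925, 3.23 for Gm29216, 2.70 for Gm28439, 2.39 for Gm28437, 2.24 for Gm28661 and 1.73 for Gm13340. Several of these calls were lost when 1 library was left out: mt-Atp8 and mt-Ts2 with each of 10 libraries, mt-Nd4l with each of 9 and mt-Rnr1 with each of 7. The interaction of mt-Nd4l was 3.69 without C57 ASIV replicate 1 and 5.64 without C57 ASIV replicate 2. Its call was also lost with voom on recovered fragments (5.58, adjusted p = 0.307), with the replicate block (4.53, adjusted p = 0.0592) and when summed with its copy (2.19, adjusted p = 0.197). That of mt-Ty was 5.59 without BTBR vehicle replicate 3. Summed with their copies, mt-Nd3 stood at 1.1 and mt-Co3 at 3.30. A pseudocount of 0.1 gave 5.34 for mt-Tw, 3.27 for mt-Atp8 and 5.55 for mt-Nd4l. After quantile normalization mt-Co1 (2.10) and mt-Rnr1 (0.59) were not called.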

How the results depend on the processing

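Depth limits the members with few fragments in BTBR vehicle, such as mt-Tw (1, 2 and 4 fragments), mt-Te (3, 4 and 2) and mt-Atp8. Their intervals rest on a spread shared by the 4 groups over all 12 libraries, not on that of the BTBR vehicle libraries alone. Over the mitochondrial genes and copies, 2347 values under an alternative kept their direction and their side of the threshold, 92 lost the call, 12 gained it and 5 turned. Of the shares and ratios 347 values kept their sign and 8 turned, all 8 in ASIV in C57 or between the strains under ASIV.

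Quantile normalization turned mt-Rnr2 to 0.68 between the strains under vehicle and to -0.12 for ASIV in BTBR. Summing members with their copies moved the mRNA median to -3.06 under vehicle, 2.66 for ASIV in BTBR and 2.88 in the interaction, turned mt-Nd3 to 0.11 between the strains under ASIV and left 0 members called there. A fit on only the groups compared called 2258 genes for ASIV in BTBR, and 560 genes and 9 members between treated BTBR and C57 vehicle. The causes of these shifts, other than fewer libraries and summed fragments, were not tested.

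Leaving out 1 library gave 99 to 643 genes and 1 to 4 members called between the strains under ASIV, 99 to 543 genes and 1 to 5 members between treated BTBR and C57 vehicle, 1166 to 2178 genes in the interaction and 0 to 1 for ASIV in C57. Between the strains under ASIV the count was 99, 108, 128 and 163 without C57 ASIV replicates 2 and 3 and BTBR ASIV replicates 3 and 1, and 576 and 643 without BTBR vehicle replicates 3 and 2. Between treated BTBR and C57 vehicle it was 99, 116 and 149 without C57 vehicle replicates 1, 2 and 3, 132 and 164 without BTBR ASIV replicates 3 and 1, and 462 and 543 without BTBR vehicle replicates 3 and 2. In the interaction it was 1248, 1166 and 1255 without C57 vehicle replicates 1, 2 and 3 and 1218 without C57 ASIV replicate 1. Under vehicle mt-Rnr2 ranged from -0.39 to 0.044, and for ASIV in BTBR mt-Tl2 ranged from -0.058 to 0.53. For ASIV in C57 the log2 ratio of mt-Rnr1 to mt-Rnr2 differed by -0.062 to 0.034, that of mt-Nd5 to mt-Nd4 by -0.12 to 0.29 and that of light-strand to heavy-strand tRNAs by -0.35 to 0.082. Between the strains under ASIV the ratio of mt-Nd5 to mt-Nd4 differed by -0.038 to 0.38 and that of tRNAs to mRNAs by -0.11 to 0.045.

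Under vehicle the call of mt-Tm was lost when any 1 of 4 libraries was left out, among them C57 vehicle replicate 1 (-1.35). For ASIV in BTBR the call of mt-Ti was lost when any 1 of 4 libraries was left out, among them BTBR vehicle replicate 2 (1.31), and in the fit on those groups alone. mt-Ti moved by over 1.5 times without BTBR vehicle replicate 3, from -2.12 to -2.78 under vehicle and from 1.72 to 2.38 for ASIV in BTBR.

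Whether the replicate numbers pair the libraries is not settled by these values. Same-numbered libraries of different groups correlated at -0.172 to 0.279 in their deviations from the group means, over 0.1 in 8 of 18 pairs (median 0.027). Libraries with different numbers correlated at -0.370 to 0.225, over 0.1 in 7 of 36 pairs (median -0.007). With the replicate block 5808 genes were called under vehicle, 4013 for ASIV in BTBR, 415 between the strains under ASIV, 342 between treated BTBR and C57 vehicle, 1862 in the interaction and 0 for ASIV in C57. In the same order the members called were 26, 26, 1, 2, 22 and 0. The voom fit on recovered fragments called 5815, 4070, 403, 344, 2014 and 0 genes.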

Other observations

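Within single groups some mRNAs of the stretch copied to chromosome 1 and their copies varied widely. mt-Nd4l, a complex I subunit, had 23.7, 366 and 54.2 FPKM in the 3 C57 ASIV libraries, and its identical copy Gm10222 had 12, 40.2 and 26.7, with replicate 2 highest for both. mt-Co3, the third subunit of complex IV, had 71.1, 262 and 98.2 FPKM in C57 vehicle, where replicate 2 was highest and its copy Gm28437 had 61.9, 64.0 and 77.5. In C57 ASIV, Gm29216, the copy of the end of mt-Co1, had 68.6, 117 and 297 FPKM, with replicate 3 highest, while mt-Co1 had 8557, 11324 and 12640.2. These genes were chosen after their values were seen, and the spread was not tested.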
